A study of Mus musculus with 6 samples.

Results

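Cytokinesis and chromosomal passenger genes were followed in hearts of newborn mice, as 10 genes picked by name from the 56748 genes of the deposited expression table. All 10 were found, and all 10 were above the filter on low values, a mean of at least 1 FPKM (fragments per kilobase of gene, scaled to the size of the library) over the libraries. RNA of hearts at postnatal day 1 was sequenced in 3 cKO samples, from mice with a cardiac-specific knockout of Kdm5b, and in 3 FF samples, from control mice labelled Flox. These samples are called cKO hearts and FF hearts below. The enzyme made from Kdm5b removes methyl groups from lysine 4 of histone H3, and per its title the study searched chromatin regulators for an effect on cell cycle genes of heart muscle cells. The labels name neither the Cre driver nor the number of animals behind a sample. The p-values therefore measure the spread between these samples, which may be technical.

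Cytokinesis is the last step of cell division. The chromosomal passenger complex moves from the centromeres to the middle of the anaphase spindle, where bundled microtubules (the midzone) mark the cleavage plane. There the centralspindlin complex recruits the exchange factor Ect2, which activates RhoA under the plasma membrane, and RhoA drives assembly of the contractile ring. The remaining bridge is cut by the ESCRT machinery in abscission. In rodents, heart muscle cells around and after birth replicate DNA and divide the nucleus but often do not complete cytokinesis, which leaves them with a pair of nuclei.

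The libraries held 15658893 to 20339926 reads, recovered from the deposited values, and the members had between 150 reads (Ect2 in FF replicate 3) and 2385 reads (Racgap1 in cKO replicate 2). FF replicate 3 stood apart, with correlations of 0.880 to 0.909 to the other libraries across genes, against 0.954 to 0.984 among those. Transcripts of 15 thymocyte markers summed to 1.38 to 2.34 FPKM in cKO hearts, against 1.70, 2.24 and 346 FPKM in FF hearts, the last in FF replicate 3. There Trbc2 stood at 109 FPKM, Cd8b1 at 22.3 FPKM and Rag2 at 0.976 FPKM. Cd8b1 was listed at 0 in the other FF libraries and in cKO replicates 1 and 3, and Rag2 in all 5 other libraries. The deviations of FF replicate 3 from the mean of all libraries also increased with the share of G and C in a gene's transcript (rank correlation, Spearman's rho, of 0.61, against -0.478 to -0.049 in the other libraries, over 12473 genes, which are not independent replicates). That mean includes FF replicate 3, so the values of the other libraries are not independent of it. The comparisons of the members are therefore given with and without FF replicate 3. Kdm5b had 2.80, 3.03 and 2.75 FPKM in cKO hearts, against 3.19, 3.25 and 3.92 FPKM in FF hearts. The groups did not overlap, but the log2 difference of -0.20 (SE 0.12) did not pass the threshold (limma with Benjamini-Hochberg adjustment over all genes, adjusted p = 0.447; exact two-sided permutation p = 0.1, the smallest that 3 against 3 allows). It was -0.13 without FF replicate 3. The value counts reads over the full gene from all cells of the sample, which makes it a coarse check of the labels.

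Many genes of mitosis carry a cell cycle genes homology region (CHR) close to the transcript start, often next to CCAAT boxes, which the DREAM and MuvB complexes and NF-Y are known to read. Promoter windows of 250 bases before to 50 after a RefSeq start (GRCm38.p6) were held for 8 of the 10 members: Birc5, Prc1, Kif23, Racgap1, Ect2, Anln, Cit and Cep55. The stretches from 90 bases before to 30 after the start are shown for Anln, Cep55, Kif23, Racgap1, Ect2 and Prc1, because these are the 6 members with CHR letters close to the start. The build of these stretches is GRCm38.p6, each is written in the direction of its gene, and the capitals mark CHR letters, which are TTTGAA or its variants with the letters TTCGAA and with the letters TTTAAA on either strand, and CCAAT letters, which read ATTGG where they lie on the other strand. No match overlapped another.
Anln (chr9:22389177-22389296, minus strand): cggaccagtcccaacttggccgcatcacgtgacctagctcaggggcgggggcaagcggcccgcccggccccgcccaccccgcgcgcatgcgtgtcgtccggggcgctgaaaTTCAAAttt
Cep55 (chr19:38054894-38055013, plus strand): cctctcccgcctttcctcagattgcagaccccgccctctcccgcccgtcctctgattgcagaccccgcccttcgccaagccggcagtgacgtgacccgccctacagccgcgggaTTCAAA
Kif23 (chr9:61946770-61946889, minus strand): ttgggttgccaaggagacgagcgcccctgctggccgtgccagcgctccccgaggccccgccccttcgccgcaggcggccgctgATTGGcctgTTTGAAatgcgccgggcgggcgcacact
Racgap1 (chr15:99651627-99651746, minus strand): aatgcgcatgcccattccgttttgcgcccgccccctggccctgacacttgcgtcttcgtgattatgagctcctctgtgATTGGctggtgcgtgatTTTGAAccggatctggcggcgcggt
Ect2 (chr3:27153825-27153944, minus strand): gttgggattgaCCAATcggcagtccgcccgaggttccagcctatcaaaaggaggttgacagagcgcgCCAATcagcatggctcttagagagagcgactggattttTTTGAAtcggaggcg
Prc1 (chr7:80294361-80294480, plus strand): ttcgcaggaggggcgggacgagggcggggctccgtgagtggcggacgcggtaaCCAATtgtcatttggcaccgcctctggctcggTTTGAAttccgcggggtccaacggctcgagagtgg
CHR letters lay in the windows of 7 of the 8 members, against 31.9% of all 27025 genes with a window and 24.4% of the 9113 tested genes with one. Within 50 bases of the start they lay in 6 of the 8, against 9.91% of all genes with a window. This second count was added after the positions had been seen. In Kif23 and Racgap1 an ATTGG stood in the bases just before the start and a TTTGAA just after it, at positions 3 to 8 and 6 to 11. Relative to the start of the stretch shown, Prc1 had CCAAT at -37 to -33 and TTTGAA across that start at -5 to 1. From its other annotated start the same letters lay at -62 to -58 and -30 to -25. The Ect2 windows held CCAAT at 3 places, and TTTGAA at 2 places. Anln and Cep55 had CHR letters without CCAAT in the window. Birc5 had a single TTTAAA far upstream, at -220 to -215, and the Cit window held neither motif. A match shows letters only, and binding was not measured. Of the other lists, CHR letters within 50 bases of the start were found for 8 of 10 other passenger and midzone genes with a window and for 8 of 9 reference genes of G2 and mitosis. They were found for 1 of 17 other contractile ring genes, 0 of 17 other abscission genes and 1 of 8 reference genes of S phase.

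**Figure D1:**
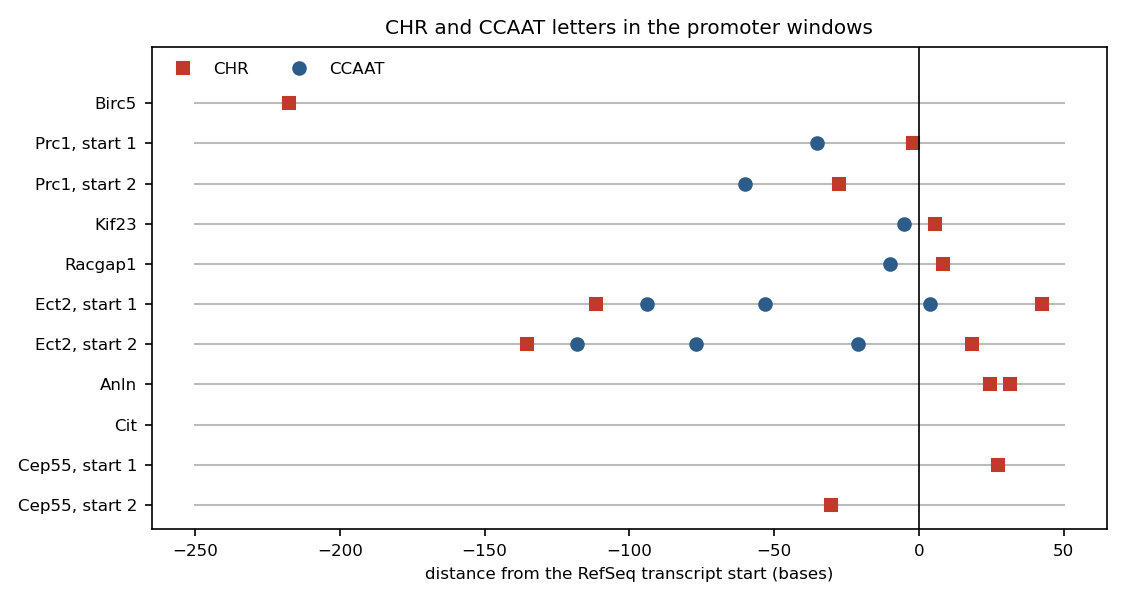
Positions of CHR letters (red squares) and CCAAT letters (blue circles) in the promoter windows of 8 members, by distance in bases from the RefSeq transcript start (black line). Genes with more than 1 annotated start have a row for each, and in 6 of the 8 genes a CHR square lies within 50 bases of the start.

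The ratio of mean FPKM, cKO over FF, ran without a break from 0.873 for Incenp to 1.90 for Anln. The ring and abscission genes stood at 1.90 (Anln), 1.73 (Cep55) and 1.33 (Cit), and without FF replicate 3 at 1.57, 1.45 and 1.37 in that order. The midzone genes stood at 1.85 (Ect2), 1.52 (Kif23), 1.35 (Prc1) and 1.32 (Racgap1), and without FF replicate 3 at 1.41, 1.32, 1.22 and 1.42. The passenger complex genes stood at 1.12 (Birc5), 1.04 (Aurkb) and 0.873 (Incenp), and without FF replicate 3 at 1.1, 1.04 and 0.914. The difference between these roles was not tested. With all libraries, 0 of the 10 passed the threshold of 0.05 after adjustment over all genes tested (limma, a linear model with moderated variances). The share of the 12678 tested genes that passed was 0.166%, with 0.0710% higher and 0.0947% lower in cKO hearts. Again 0 of the 10 passed in limma without FF replicate 3, against 12.0% of all tested genes, 5.73% higher and 6.26% lower. Before adjustment, 3 of the 10 had a p under 0.05 with 6 libraries (Anln, Cep55 and Kif23, all higher), against 8.39% of all tested genes higher and 9.55% lower. There were again 3 without FF replicate 3 (Anln, Racgap1 and Cep55, all higher), against 15.9% higher and 17.5% lower. With libraries weighted by their fit to the model, FF replicate 3 had a weight of 0.0860 and FF replicate 2 one of 5.69. With these weights limma called 7 of the 10 higher, all but the passenger complex genes. Of all tested genes, 33.9% were then called in either direction, 2143 higher and 2157 lower. In 5 of the 10, Anln, Cep55, Kif23, Racgap1 and Cit, every cKO library lay above every FF library, which was so for 13.5% of all tested genes, while 14.5% lay apart in the other direction. The same 5 lay apart without FF replicate 3, against 25.0% of all tested genes, with 27.0% in the other direction. In RNA of heart tissue, fewer cells of a type and less RNA per cell cannot be told apart.

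**Figure D2:**
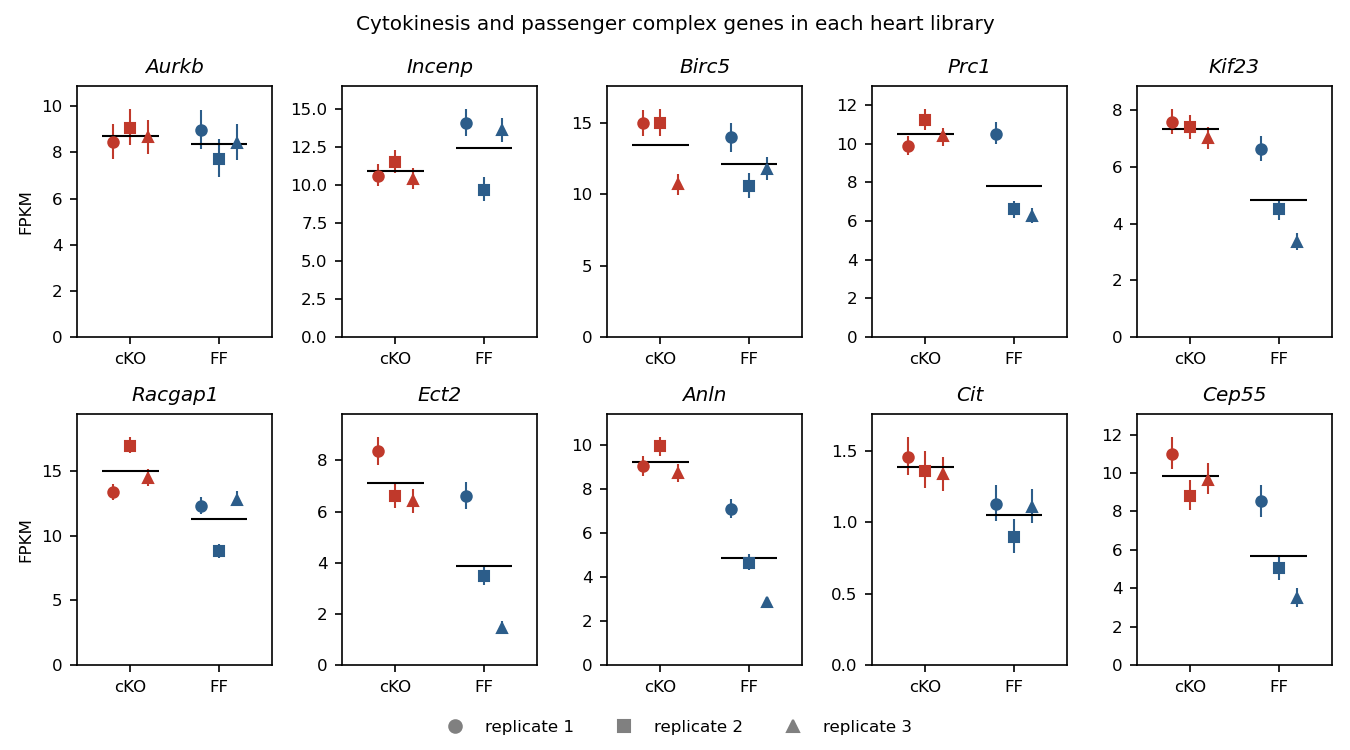
Level of each gene in FPKM (vertical axes, from 0) in the 3 cKO and 3 FF heart libraries. Symbols give the replicate number, vertical bars the 95% exact Poisson interval of the reads (counting error only) and horizontal lines the group means. In Anln, Cep55, Kif23, Racgap1 and Cit all cKO points lie above all FF points, and in Aurkb the points of both groups lie between 7.73 and 9.07 FPKM.

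Among the ring and abscission genes, anillin had the largest ratio of means. Anln (ENSMUSG00000036777, chromosome 9, 22243308 to 22300484, minus strand) encodes the scaffold that ties RhoA, actin, myosin and septins together in the ring. It had 9.05, 9.95 and 8.74 FPKM in cKO hearts, against 7.12, 4.66 and 2.85 FPKM in FF hearts. The cKO libraries lay close together, while the FF libraries spread widely, with FF replicate 3 lowest. The log2 difference on the log2(FPKM + 1) scale was 0.87 (95% interval 0.24 to 1.5, limma adjusted p = 0.172). Without FF replicate 3 it was 0.59 (0.20 to 0.99, adjusted p = 0.0621), and the ratio of means was 1.57. Counting error gave cKO replicate 1 an interval of 8.61 to 9.50 FPKM, and gave FF replicate 3 one of 2.60 to 3.11 FPKM.

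Cep55 (ENSMUSG00000024989, chromosome 19, 38043459 to 38062871, plus strand) encodes the midbody protein that brings ESCRT components to the abscission site. It had 11.0, 8.81 and 9.66 FPKM in cKO hearts, against 8.53, 5.04 and 3.47 FPKM in FF hearts. The groups did not overlap, though FF replicate 1 lay just below the lowest cKO library. The log2 difference was 0.76 (95% interval 0.11 to 1.41, limma adjusted p = 0.225), and 0.51 (0.02 to 1.00, adjusted p = 0.137) without FF replicate 3. Cit (ENSMUSG00000029516, chromosome 5, 115983337 to 116147006, plus strand), citron kinase of the midbody, was the least abundant member. It had 1.46, 1.36 and 1.34 FPKM in cKO hearts, against 1.13, 0.895 and 1.11 FPKM in FF hearts. The groups did not overlap and the libraries of each group lay close together, FF replicate 3 included. Its log2 difference was 0.22 (SE 0.14, limma adjusted p = 0.454), and 0.25 (SE 0.12, adjusted p = 0.185) without FF replicate 3, on a scale that understates the change of a gene this low. Mutation of citron kinase is known to cause failed cytokinesis in the developing nervous system of rodents.

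Of the midzone genes, Ect2 had the widest spread among FF hearts. Ect2 (ENSMUSG00000027699, chromosome 3, 27151371 to 27208027, minus strand), the exchange factor for RhoA, had 8.36, 6.62 and 6.40 FPKM in cKO hearts, against 6.59, 3.49 and 1.45 FPKM in FF hearts. The groups overlapped, since FF replicate 1 lay above cKO replicate 3. The log2 difference was 0.88 (SE 0.39, limma adjusted p = 0.297), and 0.47 (SE 0.23, adjusted p = 0.208) without FF replicate 3, which had 150 reads and a counting interval of 1.23 to 1.71 FPKM. The ratio of means was 1.85 with all libraries and 1.41 without that library.

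The centralspindlin subunits are Kif23, a kinesin that moves along midzone microtubules, and Racgap1, a GTPase-activating protein that binds Ect2. Kif23 (ENSMUSG00000032254, chromosome 9, 61823187 to 61854056, minus strand) had 7.59, 7.40 and 7.00 FPKM in cKO hearts, against 6.64, 4.50 and 3.35 FPKM in FF hearts. Racgap1 (ENSMUSG00000023015, chromosome 15, 99518377 to 99549537, minus strand) had 13.4, 17.0 and 14.5 FPKM in cKO hearts, against 12.3, 8.82 and 12.8 FPKM in FF hearts. In both genes the cKO libraries lay above the FF libraries, and the gaps to the nearest FF library were small. FF replicate 3 was the lowest FF library for Kif23 and the highest for Racgap1. The log2 difference of Kif23 was 0.55 (SE 0.21, limma adjusted p = 0.244), and 0.36 (SE 0.15, adjusted p = 0.150) without FF replicate 3. For Racgap1 it was 0.38 (SE 0.17, limma adjusted p = 0.315), and 0.48 (SE 0.16, adjusted p = 0.0972) without that library. Without FF replicate 2, its lowest library, the difference of Racgap1 was 0.23. Prc1 (ENSMUSG00000038943, chromosome 7, 79944198 to 79966007, plus strand), which bundles the antiparallel microtubules of the midzone, had 9.89, 11.2 and 10.4 FPKM in cKO hearts, against 10.5, 6.61 and 6.26 FPKM in FF hearts. FF replicate 1 lay inside the cKO range and the other FF libraries well below it. Its log2 difference was 0.42 (SE 0.20, limma adjusted p = 0.332), and 0.29 (SE 0.18, adjusted p = 0.294) without FF replicate 3 and 0.63 without FF replicate 1. Prc1 overlaps Rccd1 on the other strand, which reached at most 1.14 FPKM, and the sources used here do not say whether reads were counted by strand.

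The 3 passenger complex members had intervals that span 0, as did Prc1, Ect2, Racgap1 and Cit with 6 libraries. Aurkb (ENSMUSG00000020897, chromosome 11, 68936473 to 68942490, plus strand), the kinase of the complex, had 8.44, 9.07 and 8.65 FPKM in cKO hearts, against 8.97, 7.73 and 8.42 FPKM in FF hearts. The groups overlapped fully, and the log2 difference of 0.05 had a 95% interval of -0.21 to 0.32 (limma adjusted p = 0.838). Incenp (ENSMUSG00000024660, chromosome 19, 9849660 to 9876915, minus strand), the scaffold that binds and activates Aurkb, had 10.6, 11.5 and 10.4 FPKM in cKO hearts, against 14.1, 9.69 and 13.6 FPKM in FF hearts. It was the only one of the 10 with a lower mean in cKO hearts, at a log2 difference of -0.16 (95% interval -0.55 to 0.22, limma adjusted p = 0.642), and at 0.07 with the library weights. Birc5 (ENSMUSG00000017716, chromosome 11, 117740077 to 117746569, plus strand), survivin, which targets the complex to centromeres, had 15.0, 15.0 and 10.7 FPKM in cKO hearts, against 14.0, 10.6 and 11.8 FPKM in FF hearts. The groups overlapped, with the spread within cKO hearts wider than that within FF hearts, and the log2 difference was 0.14 (95% interval -0.28 to 0.56, limma adjusted p = 0.717). With 1 library left out at a time these differences lay between 0.004 and 0.099 for Aurkb, between -0.32 and -0.07 for Incenp and between 0.06 and 0.30 for Birc5, and without FF replicate 3 they were 0.06 for Aurkb, -0.10 for Incenp and 0.13 for Birc5. The interval of Birc5 includes a difference as large as that of Prc1. Cdca8, borealin, the remaining subunit, had 8.04, 8.08 and 7.32 FPKM in cKO hearts, against 7.03, 4.63 and 6.62 FPKM in FF hearts (log2 difference 0.33, limma adjusted p = 0.352, and 0.39, adjusted p = 0.146, without FF replicate 3). Every cKO library lay above every FF library, unlike in the 3 members of the complex.

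**Figure D3:**
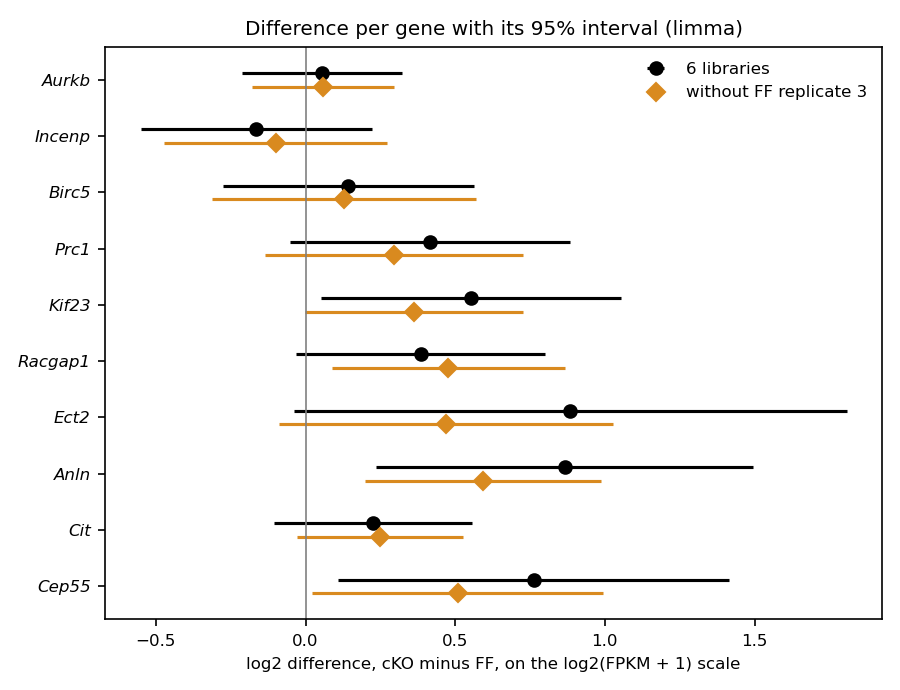
Log2 difference of each gene (cKO minus FF) with its 95% interval from limma, on the scale of log2(FPKM + 1), with 6 libraries (black circles) and without FF replicate 3 (orange diamonds). The intervals of Anln, Cep55 and Kif23 lie above 0 with 6 libraries. Those of Aurkb, Incenp, Birc5, Prc1, Ect2 and Cit span 0 in both fits. The interval of Racgap1 spans 0 with 6 libraries, and that of Kif23 without FF replicate 3.

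The median log2 difference of the 10 was 0.40 with 6 libraries, against 0.01 over all genes tested, and 9 of the 10 were above 0. Without FF replicate 3 the median was 0.33, against -0.01 over all genes. Leaving out FF replicate 1 gave 0.54 and leaving out FF replicate 2 gave 0.28. The FF libraries themselves were uneven: FF replicate 1 exceeded FF replicate 2 in all 10 genes, by 0.17 for Cit to 0.76 for Ect2 on the log2 scale. Summed over the 10 genes, the level was 94.8, 98.1 and 87.7 FPKM in cKO hearts, against 89.9, 62.0 and 65.1 FPKM in FF hearts. FF replicate 1 thus lay within the cKO range for the sum. For the 3 ring and abscission genes the sum was 21.5, 20.1 and 19.7 FPKM in cKO hearts, against 16.8, 10.6 and 7.43 FPKM in FF hearts, with no overlap. For the passenger complex it was 34.1, 35.6 and 29.7 FPKM in cKO hearts, against 37.0, 28.0 and 33.8 FPKM in FF hearts.

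FF replicate 3 departed from the other FF libraries more in members low in GC than in members rich in GC, with exceptions. Its level relative to the mean of FF replicates 1 and 2 was -1.25 for Ect2, the member with the lowest GC content (40.2%), and -0.82 for Anln (45.3%). It was -0.76 for Cep55 (44.4%) and -0.57 for Kif23 (46.3%). Prc1, second lowest in GC (43.3%), stood at only -0.37, and Birc5 (47.4%) at -0.04. The members richest in GC had 0.20 for Incenp (54.7%), 0.07 for Cit (54.2%) and 0.01 for Aurkb (52.5%), all on the log2(FPKM + 1) scale. Racgap1, with the same GC content as Kif23, stood at 0.27. Over the 10 members, which share that library, Pearson's r was 0.769. After removal of the GC trend per library, the log2 difference was 0.80 for Anln (limma adjusted p = 0.0586), 0.76 for Ect2 (adjusted p = 0.0843) and 0.68 for Cep55 (adjusted p = 0.0823) with all 6 libraries. With that correction and without FF replicate 3, Anln alone of the 10 passed the threshold (log2 difference 0.65, limma adjusted p = 0.0320), where 15.8% of all genes tested did so. With scaling to total reads in place of it, Anln also passed alone (log2 difference 0.66, limma adjusted p = 0.0369), where 13.1% of all genes did so.

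**Figure D4:**
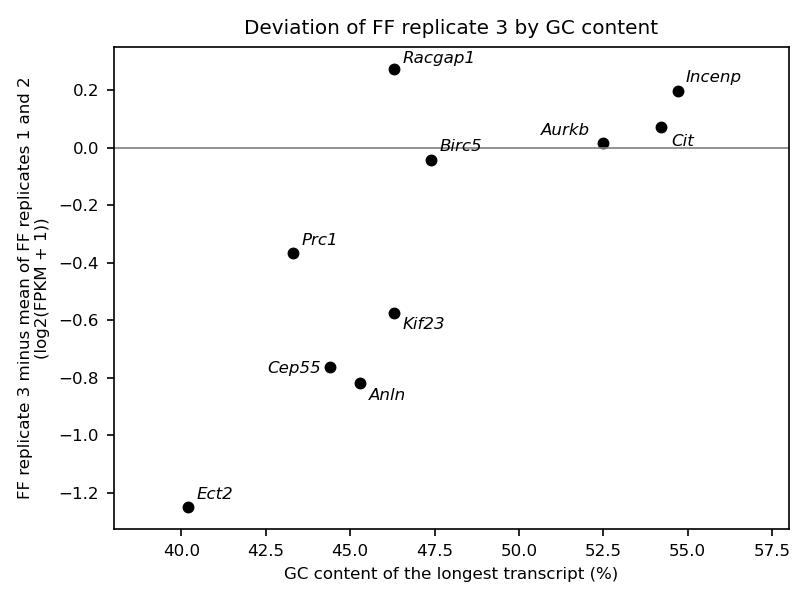
FF replicate 3 minus the mean of FF replicates 1 and 2 on the log2(FPKM + 1) scale (vertical axis) against the GC content of the longest GENCODE M21 transcript in percent (horizontal axis), 1 point per gene. Ect2, at 40.2% GC, lies lowest at -1.25, and Incenp, at 54.7%, lies at 0.20.

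Levels per length also placed the members in order within a heart. In cKO hearts the order of mean FPKM was Racgap1 (15.0), Birc5 (13.5), Incenp (10.9), Prc1 (10.5), Cep55 (9.82), Anln (9.25), Aurkb (8.72), Kif23 (7.33), Ect2 (7.13) and Cit (1.39). Of these neighbours, only Aurkb and Kif23, and Ect2 and Cit, had ranges over the 3 libraries that did not overlap. In FF hearts Incenp (12.4 FPKM) stood first, Cep55 (5.68 FPKM) sixth and Anln (4.88 FPKM) seventh, and only Ect2 and Cit had ranges apart. Within a library, the ratio of Anln to Incenp was 0.850, 0.862 and 0.840 in cKO hearts, against 0.506, 0.481 and 0.210 in FF hearts. This ratio was chosen after the values were seen and is given without a test. The ratio of Kif23 to its partner Racgap1 was 0.567, 0.434 and 0.481 in cKO hearts, against 0.538, 0.509 and 0.261 in FF hearts, and the groups overlapped. The ratio of Birc5 to Incenp overlapped as well, at 1.41, 1.30 and 1.03 in cKO hearts, against 0.991, 1.09 and 0.868 in FF hearts.

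The other genes of cytokinesis had differences on both sides of 0. Of 53 such genes in the lists, 50 were tested, and limma called 0 of them with 6 libraries, against 0.166% of all genes tested. At an unadjusted p under 0.05, 3 were higher and 5 lower, near the shares of all genes tested (8.39% and 9.55%). The median log2 difference of the 50 was 0.06. Without FF replicate 3, limma called 2 higher and 3 lower after adjustment, against 5.73% and 6.26% of all genes tested, with a median of 0.00. By role, the other passenger and midzone genes lay at a median of 0.38, 9 of 10 above 0, and at 0.20 without FF replicate 3. The other contractile ring genes had a median of -0.06, and -0.22 without FF replicate 3. Those of abscission had a median of 0.04, and 0.01 without FF replicate 3.

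Kif20a, the midzone kinesin that carries the passenger complex, was higher in cKO hearts without FF replicate 3. It had 10.4, 13.7 and 11.4 FPKM in cKO hearts, against 6.48, 4.68 and 7.54 FPKM in FF hearts, with FF replicate 3 highest of the FF libraries. The log2 difference was 0.84 (SE 0.19, limma adjusted p = 0.0991), and 0.97 (SE 0.16, adjusted p = 0.0225) without FF replicate 3. Of the contractile ring genes, Myl9, a myosin regulatory light chain of smooth muscle and non-muscle cells, had 344, 369 and 433 FPKM in cKO hearts, against 217, 247 and 467 FPKM in FF hearts. FF replicate 3 exceeded every other library, and Myl9 passed the threshold without it (log2 difference 0.71, limma adjusted p = 0.0312) but not with it (0.38, adjusted p = 0.556). Cfl1, the actin-severing cofilin, had 87.3, 91.9 and 91.9 FPKM in cKO hearts, against 129, 113 and 215 FPKM in FF hearts. It was lower without FF replicate 3 (log2 difference -0.41, limma adjusted p = 0.0460) and did not pass with it (-0.69, adjusted p = 0.218). Septin7, of the septin filaments that bind anillin, had 20.7, 17.4 and 16.1 FPKM in cKO hearts, against 35.9, 26.4 and 7.60 FPKM in FF hearts. FF replicate 3 lay far below the rest, and without it Septin7 was lower (log2 difference -0.75, limma adjusted p = 0.0377), which it was not with it (-0.12, adjusted p = 0.925). Of the abscission genes, Chmp6, an ESCRT-III subunit, had 6.70, 7.22 and 7.27 FPKM in cKO hearts, against 10.4, 9.82 and 9.60 FPKM in FF hearts. Its groups did not overlap, and it passed without FF replicate 3 (log2 difference -0.46, limma adjusted p = 0.0305) but not with it (-0.44, adjusted p = 0.115).

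**Figure D5:**
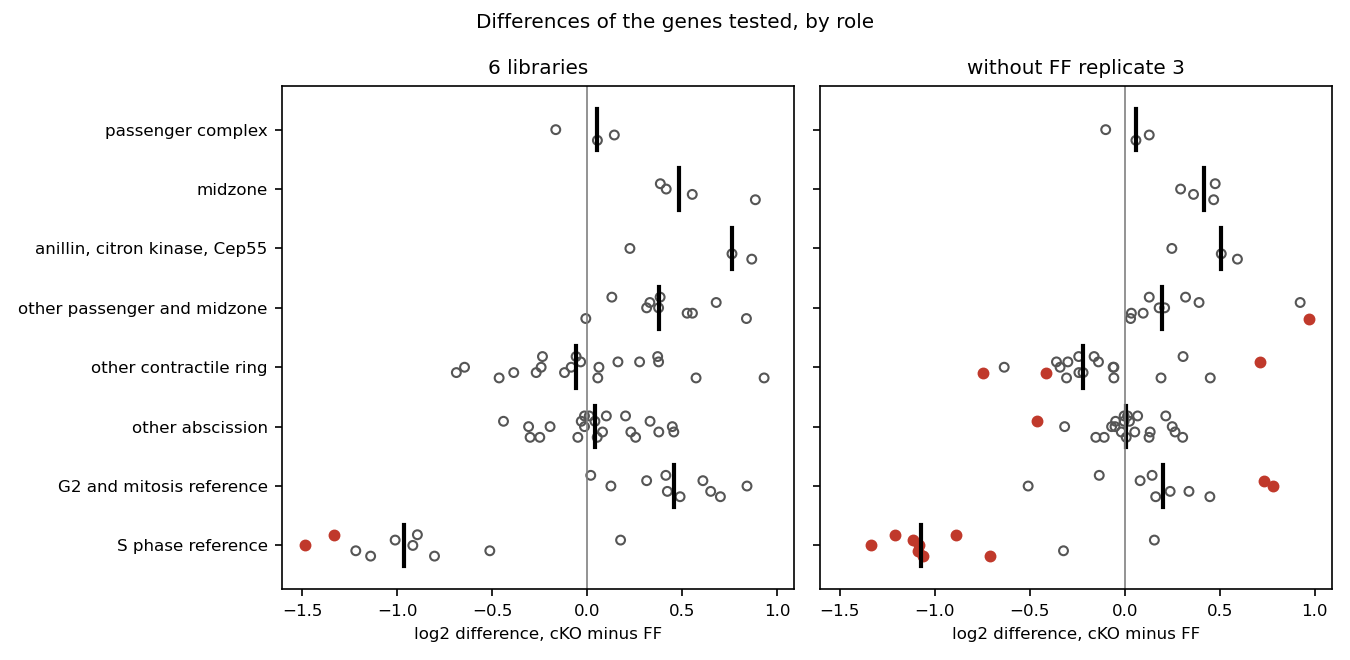
Log2 difference, cKO minus FF, of each tested gene by role (rows), with 6 libraries on the left and without FF replicate 3 on the right. Black bars are list medians, and filled red points passed the adjusted threshold in limma. None of the 10 members is filled in either panel. The S phase reference list has the median furthest to the left, with Rrm2 to the right of 0.

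Reference genes of the cycle framed these values. For the 10 reference genes of G2 and mitosis the median log2 difference was 0.46, and limma called 0 of them, against 0.166% of all tested genes. Before adjustment 3 had a p under 0.05, all higher, against 8.39% of all tested genes higher. Without FF replicate 3 the median was 0.20, with 8 of the 10 above 0, and Mki67 (-0.51) and Cdk1 (-0.13) below. Ccnb1 and Ccnb2 passed there (limma adjusted p = 0.0445 and 0.0482), where 5.73% of all tested genes were called higher. Ccnb1, cyclin B1, had 21.3, 22.2 and 17.3 FPKM in cKO hearts, against 13.8, 9.21 and 9.87 FPKM in FF hearts. Relative to Ccnb1, Anln stood at 0.425, 0.449 and 0.505 in cKO hearts, against 0.516, 0.507 and 0.288 in FF hearts, and the groups overlapped. The 10 reference genes of S phase had a median of -0.96, and all but Rrm2 (0.18) lay below 0. Mcm3 and Mcm5 were past the threshold (limma adjusted p = 0.0497 for both), where 0.0947% of all tested genes were called lower. The median was -1.07 without FF replicate 3, and 8 of the 10 passed, all lower, against 6.26% of all tested genes. Mcm2, a subunit of the replicative helicase, had 3.77, 5.16 and 3.97 FPKM in cKO hearts, against 12.1, 8.63 and 13.6 FPKM in FF hearts. The ratio of Anln to Mcm2 was 2.40, 1.93 and 2.20 in cKO hearts, against 0.590, 0.540 and 0.209 in FF hearts, and was given without a test since both genes were chosen with their values known.

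The pattern of the members over the 6 libraries was most like that of Ccna2, cyclin A2. Its Pearson's r with the mean of the 10 scaled members was 0.995, the highest of 9078 genes searched outside the members, those whose log2 level spanned at least 0.5 over the libraries. Mthfd2, an enzyme of mitochondrial folate metabolism, followed at 0.981, then Gm9118 at 0.980, Nmnat3, an enzyme of NAD synthesis, at 0.974 and Kpna2, an importin alpha, at 0.972. Ccna2 had 30.1, 32.2 and 26.1 FPKM in cKO hearts, against 29.2, 18.1 and 19.2 FPKM in FF hearts. None of these 5 passed the threshold in limma with 6 libraries or without FF replicate 3. The members' own r with that mean, which contains them, ran from 0.137 for Incenp to 0.965 for Prc1.

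Markers of cell types were set beside these values. The 8 heart muscle markers summed to 9140, 9630 and 8190 FPKM in cKO hearts, against 11400, 10500 and 9130 FPKM in FF hearts, so the tissue label held in every library. Of them 0 passed the threshold with 6 libraries or without FF replicate 3, against 0.166% and 12.0% of all tested genes. Endothelial markers summed to 269 to 326 FPKM in cKO hearts, against 338 to 462 FPKM in FF hearts, with 7 of 8 below 0 in log2 difference. Macrophage markers summed to 28.1 to 35.4 FPKM in cKO hearts, against 37.0 to 79.8 FPKM in FF hearts, with 5 of 6 tested genes below 0. Fibroblast markers summed to 476 to 607 FPKM in cKO hearts, against 590 to 856 FPKM in FF hearts, and 5 of 8 were below 0. Erythroid markers summed to 924 to 1130 FPKM in cKO hearts, against 780 to 1570 FPKM in FF hearts, with 5 of 6 tested genes above 0. Epicardial markers summed to 18.3 to 26.1 FPKM in cKO hearts, against 19.6 to 82.6 FPKM in FF hearts, the highest in FF replicate 3. Of the epicardial markers 5 of 6 were below 0 with 6 libraries and 2 of 6 without FF replicate 3. In limma, 0 markers of these 5 lists passed the threshold with 6 libraries, against 0.166% of all tested genes. The 5 lists held 8 endothelial, 8 fibroblast, 6 macrophage, 6 erythroid and 6 epicardial genes that were tested. At an unadjusted p under 0.05, 3 of these were higher and 9 lower, against 8.39% and 9.55% of all tested genes. After adjustment in the fit without FF replicate 3, 2 endothelial, 1 fibroblast and 1 epicardial marker were lower. In the same fit 2 erythroid, 1 fibroblast and 1 epicardial marker were higher. Of all tested genes 6.26% were lower and 5.73% higher in that fit. The part of these cell types in the values of the 10 genes was not tested.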

How the data were processed

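Per the file headers, the authors deposited FPKM values per gene, with 1 column for each of the 6 libraries. Tools listed in the submitters' processing notes are TopHat2 2.0.13, featureCounts, Subread, FastQC and edgeR. The same notes list GRCm39, mm10 and GRCh38 as builds, without saying which step used which. The sources used here do not state the annotation release or strand setting. Of 52073 gene identifiers shared with GENCODE M21 (GRCm38), 1472 had the same start and end, so gene coordinates are printed as deposited, which of the mouse builds named leaves GRCm39. Gene lengths (bases, another deposited column) times FPKM gave whole reads in each library (100% of values under 200 reads within 0.1). Median-ratio factors of the deposited FPKM over 17868 genes above 0 in every library were 1.014 in all 6, so the values already carry that scaling.

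Differences are cKO minus FF in limma 3.58.1 (R 4.3.3) fitted to log2(FPKM + 1) by group alone, with an intensity trend in the variance prior. P-values were adjusted (Benjamini-Hochberg, threshold 0.05) over 12678 genes, those averaging 1 FPKM or more across the libraries. The steps were tested on simulated data, which held no outlying library like FF replicate 3. The members, gene lists and tests were chosen with earlier results of these data known. Named genes were all members, Kdm5b, reference and marker genes and the 5 genes most alike in pattern. List genes past the threshold, with 6 libraries or without FF replicate 3, were also named. Cdca8, Plk1 and Arhgap11a, which did not pass, and the list genes below the filter were added with their values known. Counting intervals are 95% exact Poisson and cover counting error only. GC content came from GENCODE M21 transcripts (98.4% of tested genes), and promoters from RefSeq (GRCm38.p6). Alternatives covered the pseudocount, filter, scaling, variance prior, library weights, replicate block, GC correction and each library left out.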

Additional observations from a re-analysis of the deposited data

How the results depend on the processing

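With 6 libraries, 21 genes passed the threshold (9 higher, 12 lower), 0 of the 10 members and 0 of the 50 other cytokinesis genes tested. The count over all genes was 11 with a pseudocount of 0.1, 0 without a filter (3210 at an unadjusted p under 0.05), 53 at a mean FPKM of at least 5, 59 with quantile normalization, 34 rescaled outside mitochondrial-genome and haemoglobin genes, 13 with robust priors, 4300 with library weights and 517 with GC correction (274 higher, 243 lower). Median-ratio scaling changed nothing (21). Leaving out single libraries gave 0 to 1520 genes and 0 to 5 other cytokinesis genes, both highest without FF replicate 3. Total-read scaling and combinations with FF replicate 3 left out were chosen after seeing the data. Total-read scaling gave 48 (30 higher, 18 lower). Without FF replicate 3 the counts were 2005 with GC correction, 1519 with median-ratio scaling and 1659 with total-read scaling (1019 higher, 640 lower, against 726 and 794 as deposited), and those of other cytokinesis genes 7, 5 and 6. The cause of these shifts was not tested. Library weights gave 7 members and 16 other cytokinesis genes past the threshold, with FF replicate 3 weighted at 0.0860 and FF replicate 2 at 5.69. Only Anln passed elsewhere, as the 1 member called without FF replicate 3 under GC correction and under total-read scaling (log2 difference 0.66, limma adjusted p = 0.0369). Incenp stood at 0.071 with library weights, against -0.16 without, and the sign of no other member changed in any alternative. The members' median ran from 0.28 to 0.54 over all alternatives.

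Not all same-numbered libraries deviated together (correlations of deviations across genes of 0.383, -0.238 and 0.239 for numbers 1, 2 and 3), so the numbers were not taken to pair them. Libraries with numbers 1 and 3 correlated best with their own number, and those with number 2 did not. With the replicate block 2 genes passed, with the block and GC correction 0, and 287 with the block and without FF replicate 3. No member passed under the block in any of these fits. The member with the fewest reads in a library, Ect2 in FF replicate 3, had 150.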

Other observations

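Among the other cytokinesis genes, 3 lay below the filter and entered no test. They are named after their values were seen. Myh14, a non-muscle myosin heavy chain, had 0.550, 0.341 and 0.526 FPKM in cKO hearts, against 1.18, 1.31 and 1.06 FPKM in FF hearts, and its groups did not overlap. Septin2 had 0.533, 0.438 and 0.681 FPKM in cKO hearts, against 0.881, 0.846 and 0.229 FPKM in FF hearts, with FF replicate 3 lowest. Aurkc, the aurora kinase of germ cells, had 0.0997 FPKM in cKO replicates 1 and 2 and was listed at 0 in the other 4 libraries.

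Polo-like kinase Plk1, which promotes the recruitment of Ect2 to centralspindlin, had 15.7, 17.0 and 14.0 FPKM in cKO hearts, against 11.0, 5.32 and 13.5 FPKM in FF hearts. Its groups did not overlap, FF replicate 3 was close to the lowest cKO library, and it did not pass the threshold (limma adjusted p = 0.307, and 0.0647 without FF replicate 3). Arhgap11a, a RhoA-directed GTPase-activating protein of mitosis, had a log2 difference of 0.93 with 6 libraries and 0.45 without FF replicate 3 (limma adjusted p = 0.291 and 0.0932), both short of the threshold. Plk1 and Arhgap11a were named with their values known, and both were higher in cKO hearts. Of the 50 other cytokinesis genes tested, 9 had all cKO libraries above all FF libraries, and 9 had them below. The shares of all tested genes were 13.5% and 14.5%. Mki67 had 25.2, 13.2 and 13.2 FPKM in cKO hearts, against 29.8, 18.9 and 5.63 FPKM in FF hearts, and the ratio of Kif23 to Mki67, chosen with the values known, overlapped between the groups, at 0.301 to 0.562 in cKO hearts, against 0.223 to 0.595 in FF hearts.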
